A study of Mus musculus with 2 samples.

Results

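The let-7 family was followed through its 9 mature 5p arms on the array: mmu-let-7a-5p, mmu-let-7b-5p, mmu-let-7c-5p, mmu-let-7d-5p, mmu-let-7e-5p, mmu-let-7f-5p, mmu-let-7g-5p, mmu-let-7i-5p and mmu-miR-98-5p (the prefix mmu, for mouse, is left out where it is not needed). They were taken by name from the 1881 mouse miRNAs measured, and all 9 were detected on both arrays, as were 726 of the 1881. The family was chosen by its signals in KPC-exosomes and MPDC-exosomes, whose difference was already known, so that these levels are given as a description, without a test.

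The study compared exosomes, small vesicles that cells release, from the culture supernatants of 2 murine lines. KPC cells are a pancreatic cancer line grown from tumour tissue of KPC mice, which carry the alleles KrasLSL-G12D/+ and Trp53LSL-R172H/+ together with Pdx1-Cre, a recombinase gene under the control of a pancreatic promoter. They were kept in RPMI-1640 with 20% FBS. MPDC cells are a commercial pancreatic ductal epithelial line kept in DMEM with 10% FBS, and their exosomes were the control. Neither line received a treatment, and the medium of both was changed to one with exosome-free FBS before the supernatants were taken. The number of clones or animals behind each line is not given in the sources used here. The study asked how exosomes of pancreatic cancer cells act on C2C12 myotubes, a model of skeletal muscle. One array was made for each kind of exosome, both on 1 slide. The differences below therefore compare 2 RNA preparations and have no replicate check. In such bulk RNA, fewer vesicles that carry a miRNA and fewer copies per vesicle cannot be told apart. The array labelled MPDC-exosomes also stood apart by bright markers of pluripotent cells, which are given with their values further on together with the let-7 share without them.

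let-7 miRNAs are cut from hairpin precursors by Drosha and Dicer and repress mRNAs that pair with their seed, the bases from 2 to 8. Known targets include Ras genes, Hmga2, Myc and Lin28a, and in muscle parts of the insulin signalling pathway. Lin28 proteins block the maturation of let-7 precursors in pluripotent cells, and the mature forms rise as cells differentiate. miR-98 has another name for historical reasons and belongs to the same family.

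All 9 mature sequences were found in RefSeq (GRCm38.p6 table). They are printed from 5′ to 3′ with the seed in capitals, because the family shares that seed and the probes have to tell its members apart by the other bases.
let-7a-5p: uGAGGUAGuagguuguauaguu
let-7b-5p: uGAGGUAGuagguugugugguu
let-7c-5p: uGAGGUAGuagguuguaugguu
let-7d-5p: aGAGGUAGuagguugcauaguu
let-7e-5p: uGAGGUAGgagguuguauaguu
let-7f-5p: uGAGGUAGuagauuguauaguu
let-7g-5p: uGAGGUAGuaguuuguacaguu
let-7i-5p: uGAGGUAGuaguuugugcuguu
miR-98-5p: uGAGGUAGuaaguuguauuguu

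Each member is 22 bases long, and 14 of the 22 positions hold the same base in all 9. Counted from the 5′ end, let-7c differs from let-7a by A19G, and let-7b by A17G and A19G. let-7e carries U9G and let-7f carries G12A. let-7d differs from let-7a by U1A and U16C, let-7g by G12U and U18C, and miR-98 by G11A and A19U. let-7i is the most distant from let-7a, with G12U, A17G, U18C and A19U. Of the 1608 array miRNAs with a RefSeq mature sequence, 11 hold the seed GAGGUAG, namely the 9 members, let-7k and miR-1961.

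Several members come from more than 1 gene or lie next to each other in the genome. The files place the longer let-7b probe at chr15:85537759-85537776 (mm9) and the longer let-7c probe at chr15:85537049-85537067 and chr16:77599920-77599938. In the RefSeq annotation Mirlet7b and Mirlet7c-2 both lie within the non-coding gene Lncppara, and Mirlet7c-1 lies beside Mir99a. Mirlet7a-1, Mirlet7f-1 and Mirlet7d form 1 cluster on chromosome 13. Mirlet7a-2 lies in Mir100hg beside Mir100. Mirlet7f-2 and Mir98 share the gene Huwe1. Mirlet7e lies in Spaca6 beside Mir99b and Mir125a, Mirlet7g lies in Wdr82, and Mirlet7i has no other miRNA gene close by. Only miRNA genes that start within 10 kb of each other were counted as neighbours. An array of mature miRNAs reads the sum over genes with the same product, so the copies of let-7a, let-7c and let-7f cannot be told apart.

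Signals are the summed intensities of the probes that exceeded 3 times their scanner error, on a linear scale before any normalization between arrays. The error given is the scanner's own, which includes a multiplicative part of 10% per probe and says nothing of the spread between cultures. mmu-let-7b-5p had a signal of 5388 ± 424 in KPC-exosomes and 75.6 ± 6.10 in MPDC-exosomes. This was 71.3-fold more, and no other member differed by as much. mmu-let-7c-5p, which comes in part from the same host gene, read 4091 ± 355 and 638 ± 56.0, a 6.42-fold difference. For both, the arrays lay far apart relative to the error.

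The clustered mmu-let-7d-5p read 1259 ± 109 in KPC-exosomes and 257 ± 22.5 in MPDC-exosomes, or 4.90-fold higher. mmu-let-7i-5p read 791 ± 61.9 and 199 ± 15.7, or 3.98-fold higher. mmu-miR-98-5p gave the lowest signal of the family on both arrays, at 70.1 ± 5.27 and 18.5 ± 1.96, or 3.79-fold higher. The differences of let-7i and miR-98 lay 0.29 errors apart, so that these members, although far apart in signal, could not be ordered by their difference.

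mmu-let-7a-5p, the founding sequence of the family, read 2099.9 ± 174 in KPC-exosomes and 1032 ± 85.1 in MPDC-exosomes, which is 2.03-fold. mmu-let-7e-5p read 1196 ± 96.2 and 694 ± 56.6, which is 1.72-fold. mmu-let-7f-5p read 1079 ± 96.8 and 646 ± 58.2, which is 1.67-fold. The log2 differences of these 3 were above 0, at 1.02 ± 0.17, 0.79 ± 0.17 and 0.74 ± 0.18 (scanner error). mmu-let-7g-5p was the exception at 810.1 ± 70.6 and 875 ± 76.9, a log2 difference of -0.11 ± 0.18 that lies within the scanner error.

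**Figure D1:**
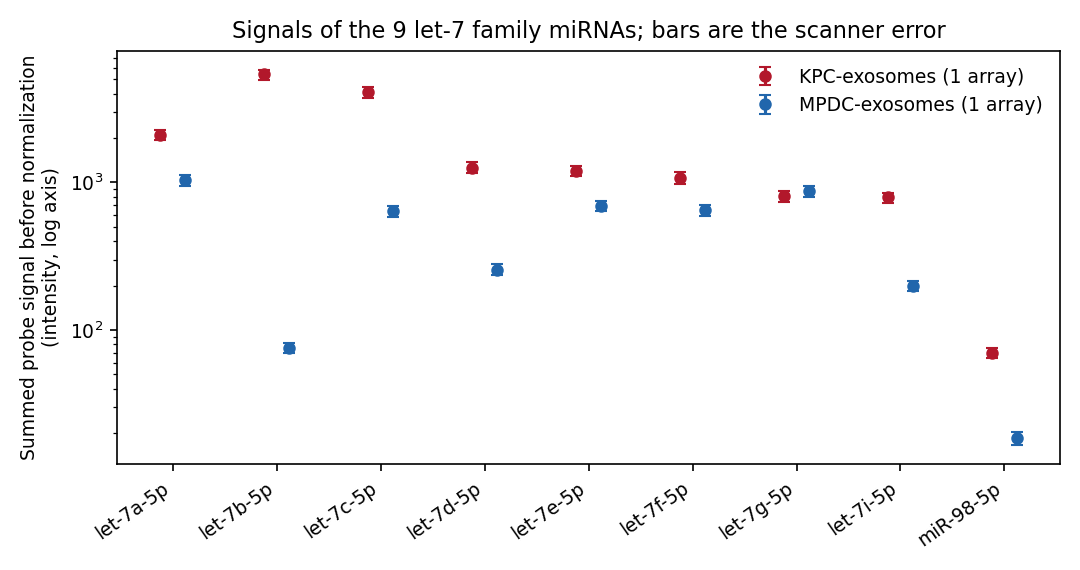
Summed probe signal of each let-7 family member before normalization (vertical log axis, intensity), with 1 KPC-exosome array in red and 1 MPDC-exosome array in blue; bars are the scanner error. The points of let-7b-5p lie 71.3-fold apart, those of let-7g-5p overlap within the error, and the KPC point is the higher one for the other members.

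On the log2 scale before normalization, the family's differences therefore ran from -0.11 for let-7g to 6.16 for let-7b, with a median of 1.92. The step from let-7b to let-7c was 14.4 errors, that from miR-98 to let-7a was 3.56 errors and that from let-7f to let-7g was 3.32 errors. The other neighbours in the order, from let-7c to let-7d, let-7i and miR-98 and from let-7a to let-7e and let-7f, were at most 1.55 errors apart. The order of the differences thus held 3 steps larger than 2 errors, with let-7b alone at the top and let-7g alone at the bottom.

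Most other miRNAs went the opposite way before normalization. Of the 726 miRNAs detected on both arrays, 18.6% were higher in KPC-exosomes by any amount, against 8 of the 9 members. At least 2-fold higher were 10.2% of them and 6 of the 9 members, while 58.8% were at least 2-fold lower, with no member among these. The median difference was -1.37 over the 726 miRNAs, so that the family's median stood 3.29 above it. The 486 miRNAs whose MPDC signal lay between those of the dimmest and the brightest member had a median difference of -1.43, and 15.0% of them were above 0. The MPDC signal level of the members was thus shared by many miRNAs that were lower in KPC-exosomes.

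**Figure D2:**
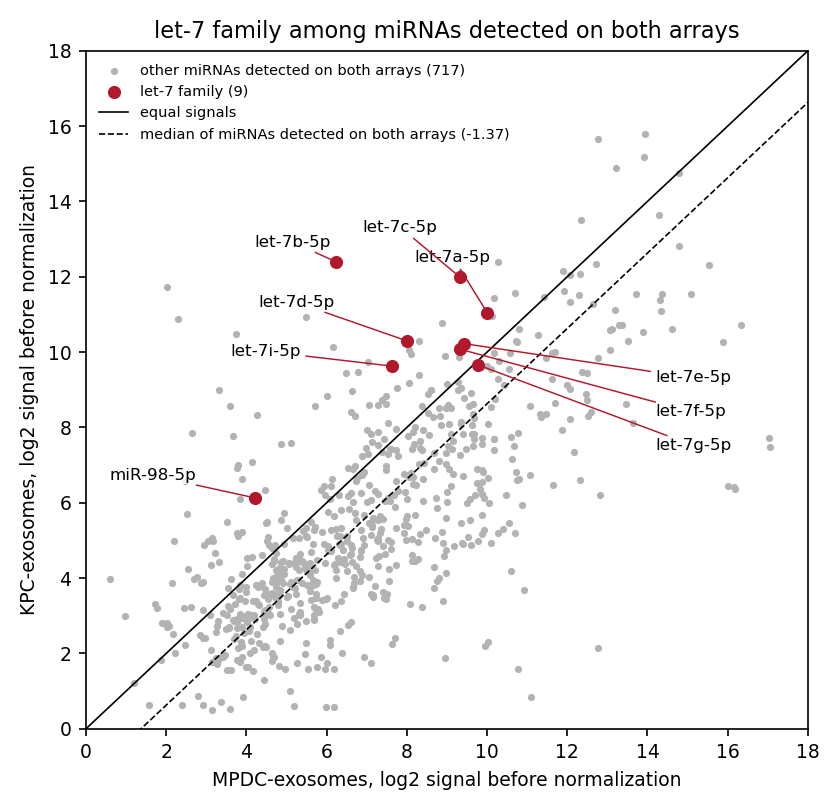
log2 signal before normalization of each miRNA detected on both arrays, MPDC-exosomes on the horizontal and KPC-exosomes on the vertical axis, with the 9 let-7 family members in red and the others in grey. The solid line marks equal signals and the dashed line the median difference of -1.37; let-7g-5p lies just under the solid line and the other members above it.

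After quantile normalization, which gives both arrays the same distribution of signals, all 9 members were at least 2-fold higher in KPC-exosomes. Of the 1077 miRNAs detected on at least 1 array, 31.5% passed the same limit upwards and 42.7% passed it downwards. Among the 726 with a signal in both preparations, 40.4% passed it upwards, so the count of members called has to be read against a background that is far above 10.2%. The normalization raised the difference of the members by 1.47 to 2.46 on the log2 scale and raised the median over the 726 miRNAs from -1.37 to 0.53.

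The normalized log2 difference was 8.61 for let-7b, 4.54 for let-7c and 4.08 for let-7d. It was 3.92 for miR-98, 3.46 for let-7i and 2.63 for let-7a. It was 2.50 for let-7f, 2.44 for let-7e and 1.42 for let-7g. let-7b again stood first and let-7g last, and 8 of the 9 members were at least 4-fold higher, against 24.9% of the miRNAs detected on both arrays. The family's median was 3.46, which is 2.93 above the median of the 726 miRNAs. Among these 726, let-7b ranked 4 by the difference before normalization and 7 after it, and let-7g ranked 150 and 232.

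The sign of the let-7g difference turned with the scaling. With the 4 spike-in controls, RNAs meant to be present in equal amounts on all arrays, its log2 difference was -0.14. That value lies within its scanner error of 0.18. At least 2-fold higher stayed 5 members, with let-7a just under the limit at 0.999. The spike-ins themselves differed by -0.31 to 0.38 before normalization, with a mean of 0.03. After quantile normalization they differed by 1.18 to 2.43, so all 4 passed the 2-fold limit upwards as well. The normalized 1.42 of let-7g lay within that range, and the other 8 members lay above it, let-7e (2.44) only just. Under each of the other 13 settings, let-7g was higher in KPC-exosomes. The other 8 members were higher under all 15 settings. How much miRNA each exosome preparation held was not measured by these arrays, so these 2 readings of let-7g cannot be told apart.

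**Figure D3:**
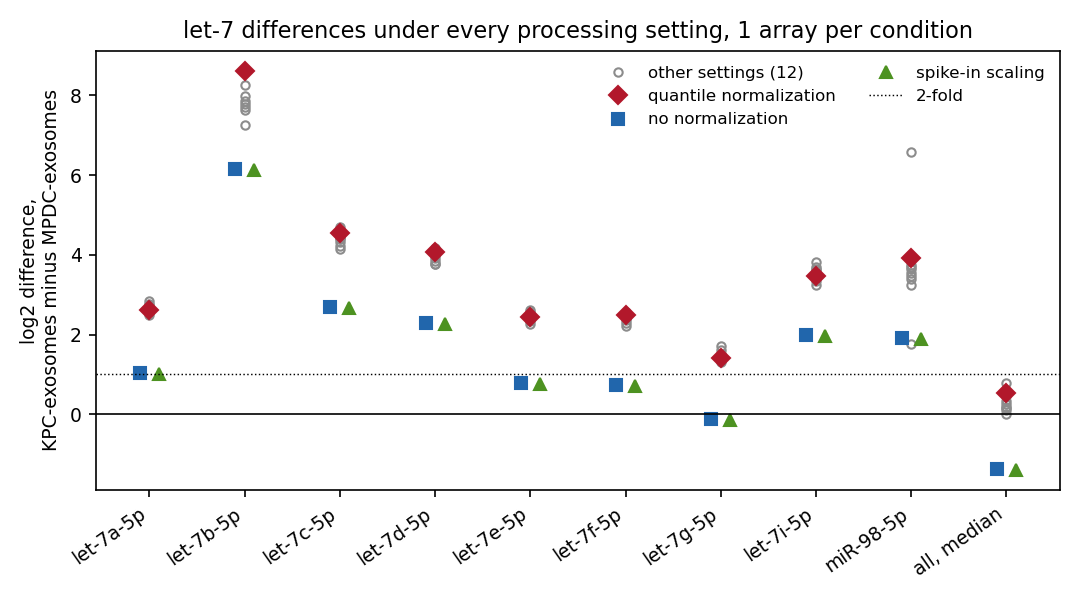
log2 difference, KPC-exosomes minus MPDC-exosomes, of each member and of the median over the miRNAs detected on both arrays under 15 processing settings, from 1 array per condition. Red diamonds mark quantile normalization, blue squares no normalization, green triangles spike-in scaling and grey circles the other 12 settings; let-7g-5p falls below 0 in 2 settings, and the other members stay above 0.

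Each member was read by 2 probes of 18 to 22 bases, with 15 spots per probe and no saturated spot. Flagged as outliers were 2 spots of let-7g and 1 of let-7b in KPC-exosomes. In MPDC-exosomes these were 2 spots of let-7i and 1 each of let-7a and let-7e. The spot ranges and coefficients of variation below include the flagged spots. Every probe reaches to base 22 of its target and begins at one of bases 1 to 5, so that it covers the variable 3′ part. The 18 probes all match their own target whole and none matches another member whole, but 12 of them differ from another member by 1 base. The longer probes of let-7b and let-7c show how small that difference can be. They are printed from 5′ to 3′, with the base in capitals at which they differ.
let-7b-5p probe: aaccaCacaacctactacc
let-7c-5p probe: aaccaTacaacctactacc

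This capital base lies opposite base 17 of the miRNA, where let-7b and let-7c differ by G17A. Although let-7c has nearly the same sequence, the let-7b signal was 132% of the let-7c signal in KPC-exosomes and 11.9% of it in MPDC-exosomes. The ratio of these neighbours therefore changed between the arrays. The part of cross-hybridization in the signal of either member was not tested.

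The differences that the 2 probes of a member gave were close. On the log2 scale they lay at most 0.175 apart, and at most 0.60 of the error. For let-7b the shorter probe gave 6.12 and the longer probe 6.17, and for let-7g they gave -0.01 and -0.13. The longer probe was the brighter one for all 9 members on both arrays, by 1.63-fold for miR-98 in KPC-exosomes and up to 8.32-fold for let-7f in MPDC-exosomes. Because probes of 1 miRNA differ this much, the order of signals between members does not give the order of their amounts.

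Over the 15 spots of a probe, the coefficient of variation had a median of 5.15% and ran from 2.79% to 16.2%, the highest value being that of the shorter miR-98 probe in MPDC-exosomes. The spots of the longer let-7b probe ranged from 12740 to 15011 in KPC-exosomes and from 178 to 222 in MPDC-exosomes (processed spot signals). Those of the longer let-7g probe ranged from 1963 to 2592 and from 2509 to 2940. The spot ranges of both let-7g probes overlapped between the arrays, and those of the other 16 probes did not. How often the ranges overlapped over all probes of the array was not computed, so this count marks no trait of the family. Spots of 1 array share their RNA and measure technical spread alone.

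**Figure D4:**
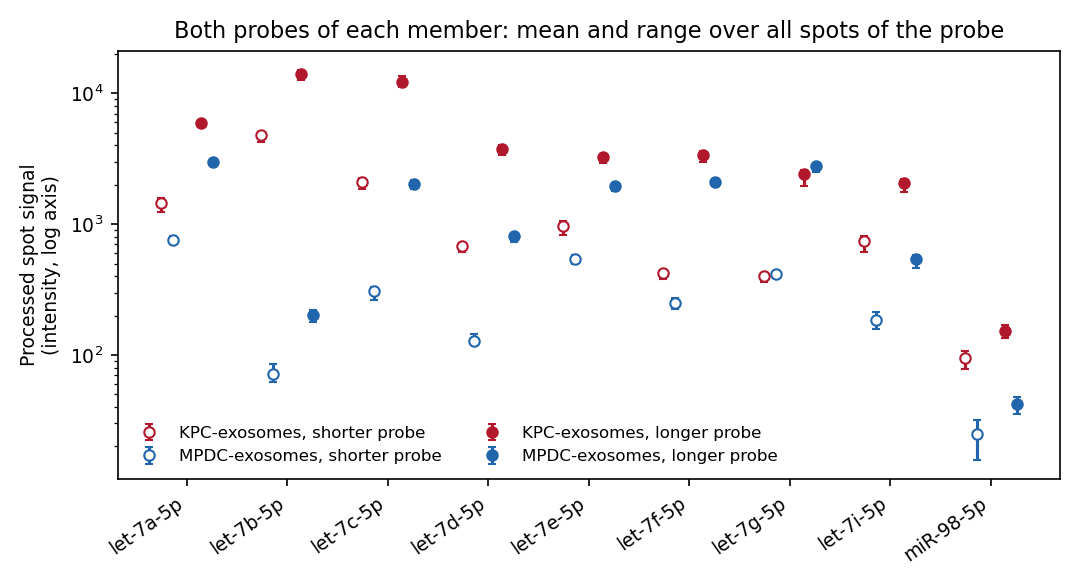
Processed spot signal (vertical log axis, intensity) of the shorter probe (open circles) and the longer probe (filled circles) of each member, in KPC-exosomes (red) and MPDC-exosomes (blue); points are means and bars the range over 15 spots. The distance between red and blue is nearly the same for both probes of a member, and the ranges overlap for let-7g-5p.

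The place of the members within each array moved as well. let-7b ranked 9 of the 772 miRNAs detected in KPC-exosomes and 442 of the 1031 detected in MPDC-exosomes. let-7c ranked 17 and 173, and let-7a ranked 33 and 118. miR-98 ranked 272 and 713. In KPC-exosomes 8 of the 9 members lay among the brightest 10% of the detected miRNAs, all but miR-98, and in MPDC-exosomes none did. With the totals per miRNA that Feature Extraction gives, the count in KPC-exosomes was 6, since let-7g and let-7i ranked 89 and 92. The totals of the 9 members equal their probe sums, so these ranks moved through other miRNAs. For 143 of the 1881 miRNAs in KPC-exosomes the total differed from the sum of detected probes, as described at the end. With the brightest probe alone, 1 member was among the brightest 10% in MPDC-exosomes. Even let-7g, whose signal hardly differed, went from rank 136 in MPDC-exosomes to rank 70 in KPC-exosomes.

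The 9 signals summed to 16784 ± 613 on the KPC array and 4434 ± 154 on the MPDC array, a 3.78-fold difference. Without let-7b the sum was 2.61-fold higher. All detected miRNAs together went the other way, with a KPC sum 0.305 times that of MPDC-exosomes. The family thus made up 3.91% of the summed signal in KPC-exosomes and 0.315% in MPDC-exosomes.

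The composition of the family's signal also differed. let-7b made up 32.1% of the let-7 sum in KPC-exosomes and 1.70% in MPDC-exosomes, and let-7c made up 24.4% and 14.4%. The shares of let-7g were 4.83% and 19.7%, those of let-7a 12.5% and 23.3%, those of let-7e 7.12% and 15.6%, and those of let-7f 6.43% and 14.6%. let-7d held 7.50% and 5.80%, let-7i held 4.71% and 4.48%, and miR-98 held 0.418% and 0.417%. The KPC-exosome sum was therefore carried to 56.5% by let-7b and let-7c, which together held 16.1% of the MPDC-exosome sum. A share mixes amount with the brightness of the probes, so each share is set only against the same member's share on the other array.

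**Figure D5:**
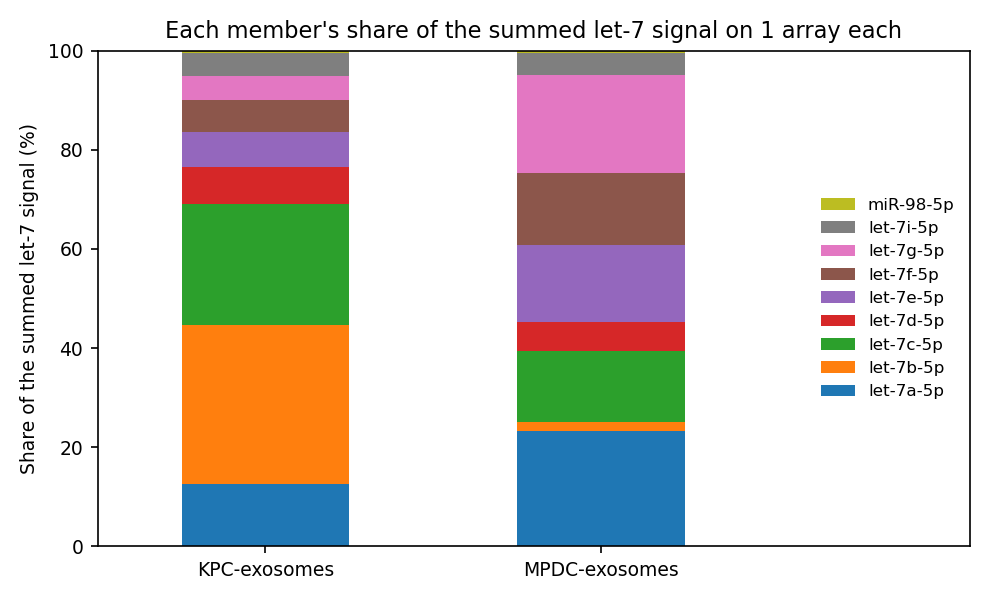
Share of each member in the summed let-7 signal (vertical axis, percent) on the KPC-exosome array and the MPDC-exosome array, 1 array each. The let-7b-5p segment takes 32.1% of the KPC bar and 1.70% of the MPDC bar, and the let-7g-5p segment takes 4.83% and 19.7%.

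Each let-7 precursor also yields a 3p arm, which is usually the less stable one. Of the 11 let-7 and miR-98 3p arms on the array, 8 were detected on neither array. Over all miRNAs, 1077 of the 1881 were detected on at least 1 array. let-7b-3p read 11.9 ± 1.11 in KPC-exosomes and 23.5 ± 1.54 in MPDC-exosomes, and let-7f-1-3p read 11.7 ± 1.1 and 21.8 ± 1.49. Their log2 differences before normalization were -0.98 and -0.90, and 0.80 and 0.92 after it, so their direction turned with the normalization. let-7e-3p was detected only in KPC-exosomes, by 1 of its 4 probes, at 1.54 ± 0.461. Its bound of at least 1.02-fold higher lies within the scanner error and so shows no difference. The 71.3-fold difference of let-7b-5p thus had no counterpart in the let-7b-3p signal. That signal was dim, and its probes read much like those of let-7f-1-3p. In KPC-exosomes the probes of let-7b-3p read 2.72 to 3.25 and those of let-7f-1-3p 2.43 to 3.27. In MPDC-exosomes they read 5.52 to 6.26 and 4.75 to 6.05. Whether these signals came from the named arms alone was not tested. The 2 arms measured on both arrays have these sequences, shown because they share a seed of their own (capitals) that differs from that of the 5p arms.
let-7b-3p: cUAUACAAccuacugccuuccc
let-7f-1-3p: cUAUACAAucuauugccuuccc

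Of 3 other miRNAs that carry the let-7 name or a seed like it, let-7j was detected on neither array. let-7k, which has the family's seed in a shorter sequence, read 5.47 ± 1.08 in KPC-exosomes and 13.5 ± 1.73 in MPDC-exosomes. miR-202-3p, whose seed differs from that of let-7 in its last base, read 154 ± 11.0 and 639 ± 45.3. Both were lower in KPC-exosomes before normalization, by log2 differences of -1.30 and -2.06, where the 9 members had a median of 1.92. After normalization let-7k turned to 3.22, and miR-202-3p stayed below 0 at -0.32. In MPDC-exosomes let-7k ranked past the number of miRNAs detected in KPC-exosomes. Its quantile was therefore averaged with the floor of 0.1 set for undetected miRNAs, so the value of 3.22 depends on that floor. The sequences of let-7k and miR-202-3p are shown with bases 2 to 8 in capitals, for comparison with the members.
let-7k: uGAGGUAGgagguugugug
miR-202-3p: aGAGGUAUagcgcaugggaaga

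Genes of the miR-99, miR-100 and miR-125a miRNAs lie within 10 kb of let-7 genes. miR-125b is of the miR-125 family, although none of its genes was found within 10 kb of a let-7 gene, and larger distances were not looked at. After normalization all 5 of these 5p arms were at least 2-fold higher in KPC-exosomes, as were 40.4% of the miRNAs detected on both arrays. Before it 4 of the 5 were higher by any amount, against 18.6%. miR-99a-5p, beside Mirlet7c-1, read 95.6 ± 8.12 in KPC-exosomes and 5.52 ± 1.14 in MPDC-exosomes, and miR-100-5p, beside Mirlet7a-2, read 321 ± 24.2 and 19.4 ± 2.08. Their log2 differences before normalization were 4.11 and 4.05, above those of let-7c (2.68) and let-7a (1.02).

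miR-125b-5p read 4351 ± 391 and 645 ± 58.5, a log2 difference of 2.75 before normalization. The 2 miRNAs with genes beside Mirlet7e were split: miR-125a-5p read 668 ± 58.6 and 314 ± 27.1, and miR-99b-5p read 199 ± 14.7 and 323 ± 24.5. Their log2 differences were 1.09 and -0.70 before normalization, on either side of the 0.79 of let-7e, and 2.62 and 1.01 after it. The median of the 5 miRNAs was 2.75 before and 4.77 after normalization, and that of the 4 without miR-125b was 2.57 and 4.25, beside -1.37 and 0.53 over all miRNAs detected on both arrays.

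By their log2 signals on both arrays before normalization, the miRNAs nearest to the family's median point were miR-7082-5p, miR-6368, miR-3968, miR-8101 and miR-7048-5p. Their distances from it were 0.365 to 0.881 log2 units over the 2 arrays. The closest, miR-7082-5p, read 929 ± 66.1 in KPC-exosomes and 626 ± 44.4 in MPDC-exosomes. With 2 arrays, such likeness says only that the signals were alike.

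The markers of other cell types moved between the arrays too. The 3p arms that run from miR-290a to miR-295 in 1 cluster, which mark pluripotent cells, were detected on both arrays. Before normalization 6 of 6 were lower in KPC-exosomes, as were 81.4% of the miRNAs detected on both arrays, and their median log2 difference was -9.55, where that over all was -1.37. They summed to 0.153% of the KPC-exosome signal and 34.3% of the MPDC-exosome signal. Of the 1031 miRNAs detected in MPDC-exosomes, 726 were detected in KPC-exosomes too. The 5 miRNAs of the miR-302 and miR-367 cluster, another pluripotent set, were not detected in KPC-exosomes and read 103 to 953 in MPDC-exosomes. The array labelled MPDC thus held pluripotent markers that a ductal epithelial line is not known for. With the miR-290 to miR-295 3p arms left out of the total, let-7 made up 3.92% of the signal in KPC-exosomes and 0.480% in MPDC-exosomes. The further part of these markers in the let-7 difference was not tested.

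All 7 epithelial markers were detected in MPDC-exosomes, with a sum of 1781 and miR-200c-3p the brightest. In KPC-exosomes 5 of the 7 were detected, with a sum of 98.8, and miR-203-3p and miR-205-5p were not. Of the 5 pancreas markers, miR-217-5p was detected only in KPC-exosomes (60.9), miR-148a-3p only in MPDC-exosomes (1189.7), and miR-216a-5p, miR-216b-5p and miR-375-3p on neither array. The 5 mesenchymal markers were not detected in KPC-exosomes and summed to 226 in MPDC-exosomes. Over all miRNAs, 726 of the 1031 detected in MPDC-exosomes were also detected in KPC-exosomes. After normalization 5 of the 7 epithelial and all 5 mesenchymal markers were at least 2-fold lower in KPC-exosomes. The same held for 42.7% of the 1077 miRNAs detected on at least 1 array, and the other 2 epithelial markers differed by less than 2-fold.

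The 5 haematopoietic markers went in opposite directions before normalization. miR-142a-3p read 188 ± 14.0 in KPC-exosomes and 29.1 ± 2.59 on the other array, miR-155-5p read 456 ± 39.1 and 179 ± 14.4, and miR-142a-5p was detected only in KPC-exosomes (28.4). miR-223-3p was lower in KPC-exosomes, at 32.0 ± 2.77 and 184 ± 15.2, and miR-150-5p was detected only in MPDC-exosomes (109). The sums over the list, 704 and 501, therefore hide differences of both signs.

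The 3 markers of serum and red cells summed to 30.6 in KPC-exosomes and 159 in MPDC-exosomes before normalization. miR-122-5p was detected only in MPDC-exosomes (6.32). The log2 differences of miR-451a and miR-486a-5p were -2.66 and -1.80 before normalization and -0.82 and -0.0027 after it. Their part in the let-7 difference was not tested. The lines were kept at different FBS percentages before the exosome-free medium, and this and the cell line cannot be told apart here.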

How the data were processed

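Exosome miRNAs were measured on 1 Agilent mouse miRNA array per cell line (Cy3, 1 colour). The authors deposited, for each array, the Agilent Feature Extraction table, in which probe signals and their errors are linear intensities after background subtraction. The file header names version 10.7.1.1 and the submitters' processing notes name 9.1. A table of log2 values, 1 per miRNA and array, was also deposited by the authors, who normalized it in GeneSpring by a method not given in the sources used here. Outlier and saturation flags were deposited as 0 or 1 per spot.

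Here the total probe signals above 3 errors were summed per miRNA. Undetected miRNAs received a floor of 0.1. Quantile normalization was then run on the log2 signals of the 2 arrays, with 21 control features included. The result lay within 1.11e-05 of the deposited log2 values. A miRNA was called at a 2-fold difference when detected on at least 1 array. Where 1 array did not detect a miRNA, its bound used the higher of 2 values of that array, the lowest signal detected and its own signal. With 1 array per group no test was made, and the number of arrays limits the precision. The error of a difference combines the scanner errors of both arrays.

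The members and lists were chosen with earlier results of these data known. Named were all members, detected members of the lists of related miRNAs, the 5 nearest miRNAs, and marker lists by their sums and brightest members. Some further markers, among them several that 1 or both arrays did not detect, were picked for naming with their values in view. The normalization was tested on simulated data. Both simulated arrays had the same detected miRNAs, unlike the real ones with 772 and 1031, so the effect of that difference was not checked. Sequences and neighbouring genes came from RefSeq tables (GRCm38.p6), and positions, on mm9, from the files. Python 3.11.15 (numpy 2.4.6, pandas 2.3.3, matplotlib 3.10.9) and R 4.3.3 (limma 3.58.1) were used. The alternatives were other scalings, probe summaries, background corrections, floors and thresholds. Leaving out let-7b, and the pluripotent cluster from the array total, were chosen after seeing the data, as were the medians without miR-125b and the counts among the brightest 10% under other summaries.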

Additional observations from a re-analysis of the deposited data

How the results depend on the processing

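The family's median log2 difference, 3.46 after quantile normalization, was above 0 under every setting run. It was 1.92 without normalization, 1.90 with spike-in scaling, 2.70 with normexp, 3.25 with quantiles limited to miRNAs found on both arrays, 3.74 with the 75th percentile of all miRNAs and 3.04 without let-7b. The count of members at least 2-fold higher was 9, but 6 without normalization, 5 with spike-in scaling and 8 at the 4-fold threshold. let-7g changed sign, to -0.11 without normalization and -0.14 with spike-ins, and both values lie within its scanner error of 0.18. Of the 14 alternatives, 3 (the deposited log2 values, a floor of 1, and probes without a whole match in another member) equal the reported values for every member by construction. Of the 99 member differences under the other 11, 49 lay within the scanner error of the reported value, 48 kept their sign but moved by more than that, and 2 reversed. miR-98, reported at 3.92, ranged from 1.76 with normexp to 6.59 with the Feature Extraction totals per miRNA. Under these totals it ranked 847 in MPDC-exosomes, past the 772 miRNAs detected in KPC-exosomes, so that its quantile was averaged with the floor. No paired analysis was possible because each group has 1 sample, and for the same reason no replicate could be left out.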

Other observations

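The per-miRNA total in the Feature Extraction output differed from the sum of that miRNA's detected probes, by more than a relative tolerance of 0.001, for 143 of the 1881 miRNAs in KPC-exosomes and 182 in MPDC-exosomes. The totals of the 9 let-7 family members equalled their sums on both arrays. The total of let-7e-3p in KPC-exosomes was 1260.1 where its only detected probe read 1.54, and the excess of 1259 equals the signal of let-7d-5p. The total of let-7k in KPC-exosomes was 797 where its detected probe read 5.47, and the excess of 791 equals the signal of let-7i-5p.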
